A study of Drosophila melanogaster with 10 samples.

Results

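The transcriptome of control Drosophila melanogaster S2 cells was described from 5 of the 10 arrays of a study of JIL-1, a chromosomal histone kinase. The members were the 5 arrays of the control RNAi type, in which the cells had received double-stranded RNA (dsRNA) against a control sequence in place of JIL-1. In 2 arrays (replicates 4 and 5, labelled batch B) the dsRNA targeted EGFP, a jellyfish fluorescent protein. In the other 3 arrays (replicates 1, 2 and 3, batch A) it targeted GST, for which the labels give no source organism. Each culture had been given 10 µg of dsRNA without serum for 1 h, was split at day 3 and harvested 7 days in, and the labels name only the S2 line, with no other genotype. The other 5 arrays, from JIL-1 RNAi cells, were not described here. The dsRNA target and the batch were the same split of the control arrays, so that these causes cannot be told apart. The series calls its samples biological replicates. The p-values below measure the spread between these samples.

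S2 cells are an established line grown from late fly embryos that takes up particles and dsRNA and resembles plasmatocytes, the macrophages of the fly. Fly blood holds 3 classes of cell: plasmatocytes engulf debris and microbes and lay down basement membrane, crystal cells carry the prophenoloxidases of melanin formation, and lamellocytes wrap parasites. A dividing cell line also needs the machinery of growth and division.

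The deposited log2 values covered 18952 probe sets, and 11983 genes had at least 1 probe set that carried their name alone. Each gene was represented by its brightest probe set, and its level was the mean of the EGFP and GST group means. A gene was called on when it lay above 6 in all 5 arrays and off when it lay under 4 in all 5. By this rule 5245 genes were on (43.8%), 6019 were off (50.2%) and 719 were neither (6.00%). The median level of the on genes was 9.52, with 487 genes above 12 and 56 above 14. Of the off genes, 4932 lay within 0.05 of the lowest value of the scale in all 5 arrays, so they have no order among themselves. Close to the limits, 214 on genes had a lowest value within 0.5 of the upper limit and 97 off genes had a highest value within 0.5 of the lower one. Of the genes that were neither, 177 had a lowest value over 5.5 and 96 a highest value under 4.5. A probe set's level also depends on its probes, so neighbours in a ranking of genes are not ordered. In bulk samples, fewer cells of a type and less RNA per cell cannot be told apart.

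**Figure D1:**
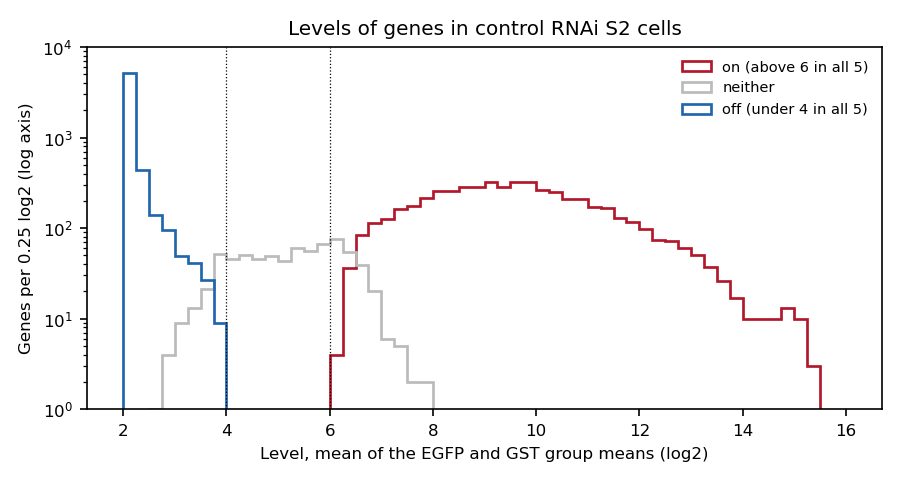
Number of genes (vertical log axis, per 0.25 log2) against the level of the gene (horizontal axis, log2, mean of the EGFP and GST group means), for 5245 on, 719 neither and 6019 off genes. The off genes pile up at the lowest value of the scale, the on genes form a broad hump around a median of 9.52, and dotted lines mark 4 and 6.

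The 5 arrays were alike in range, with a lowest value of 2.20 and between 50.4% and 51.6% of probe sets within 0.01 of it. The median of the on genes was 9.62 and 9.60 in the EGFP arrays, against 9.43, 9.45 and 9.51 in the GST arrays. Over the on genes the SD of the difference between arrays was 0.128 for the EGFP pair and 0.182 to 0.234 for the GST pairs, but 0.559 to 0.635 between an EGFP and a GST array. The arrays of a group therefore lay closer to each other than to any array of the other group. The number of arrays limits the precision.

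Ribosomal proteins filled the top of the ranking. Of the 25 genes with the highest level, 19 encoded proteins of the cytosolic ribosome. The first was Nplp2, a neuropeptide-like precursor, at 15.58 and 15.55 in EGFP cells and 15.34, 15.47 and 15.39 in GST cells. It was followed by CG5953, at 15.57 and 15.65 in EGFP cells and 15.19, 15.45 and 15.34 in GST cells. RpL41, a very short protein of the large ribosomal subunit, came next at 15.56 and 15.53 in EGFP cells and 15.20, 15.33 and 15.28 in GST cells. In all of these 3 genes the EGFP values were above the GST values, but by less than 0.5 on the log2 scale. The other genes of the 25 that do not encode ribosomal proteins were eIF4A (14.94), the RNA helicase of translation initiation, eEF5 (14.78), a translation elongation factor, regucalcin (14.87), a calcium-binding protein, and tsr (14.79), the cofilin that takes actin filaments apart. These values lay close to the top of the scale, where array signals flatten, so differences between the brightest genes may be compressed.

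The blood cell markers were mostly those of plasmatocytes. Of 25 measured plasmatocyte genes 23 were on, against 43.8% of all genes, with a median level of 12.20, and Sr-CII was off. The basement membrane genes were brightest: SPARC, a collagen-binding matrix protein, was at 14.27 and 14.24 in EGFP cells and 14.68, 14.60 and 14.59 in GST cells. Col4a1, a chain of type IV collagen, was at 13.79 and 13.86 in EGFP cells and 14.07, 13.94 and 13.87 in GST cells. The other collagen IV chain, vkg, averaged 13.97 and Glt, a glutactin of basement membranes, 13.78. Of the laminin chains, LanA was on at 13.52, LanB2 at 12.69 and LanB1 at 12.44. Hml, a clotting protein and the marker by which plasmatocytes are most often traced, was at 12.51 and 12.72 in EGFP cells and 12.86, 12.78 and 12.73 in GST cells. The groups did not overlap, but the nearest values of Hml all but met. The engulfment receptors eater (12.20), drpr (11.95), Sr-CI (11.65) and crq (11.07) were on as well. So were srp (12.97), the GATA factor of blood cell fate, its partner ush (11.06) and Pvr (13.00), a receptor tyrosine kinase for platelet-derived growth factor-like ligands.

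Markers of the other blood cells were mixed. PPO2, a prophenoloxidase stored by crystal cells, was at 7.55 and 7.59 in EGFP cells and 9.71, 9.44 and 9.75 in GST cells. PPO1 was at 7.20 and 6.92 in EGFP cells and between 8.88 and 9.14 in GST cells. Both enzymes were thus on in every array, whereas lz, the Runx factor that sets crystal cell fate, lay between 2.20 and 2.24 throughout, and peb and klu were also off. Of 6 lamellocyte genes, cher (11.31), a filamin, msn (10.40), a kinase, and the prophenoloxidase PPO3 (9.11) were on. The surface marker atilla and the integrin chains ItgaPS4 and ItgaPS5 were off. The plasmatocyte list thus had 23 of 25 genes on, the lamellocyte list 3 of 6 and the crystal cell list 2 of 5, against 43.8% of all genes. The lists were chosen with earlier results of these data known, so these counts describe the cells and do not test their identity.

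**Figure D2:**
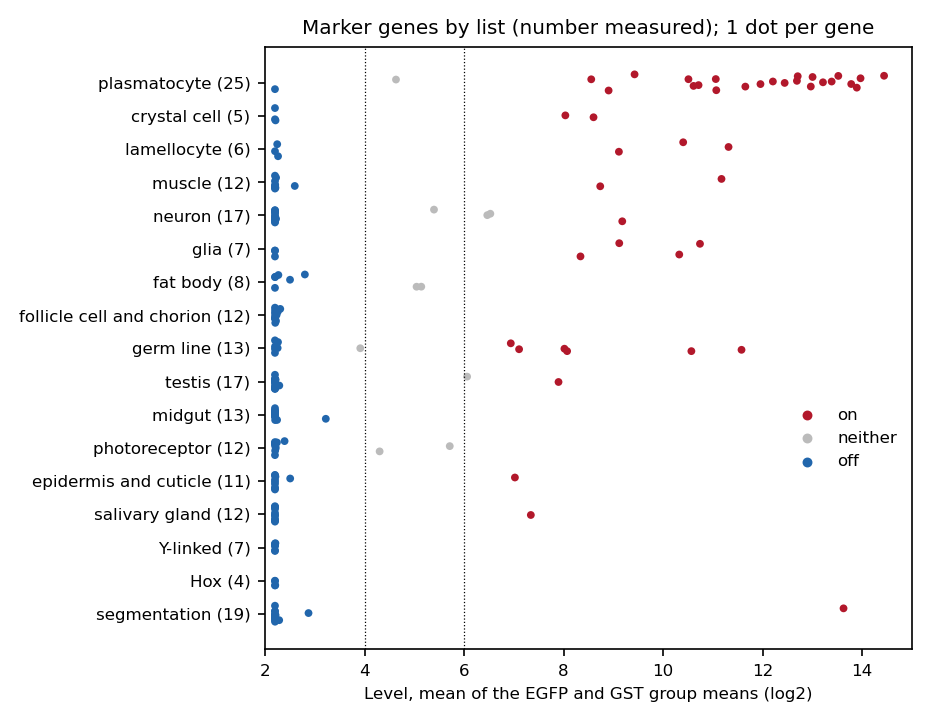
Level of each marker gene (horizontal axis, log2, mean of the EGFP and GST group means), 1 dot per gene, by list with the number measured, coloured by state. The plasmatocyte dots lie to the right of 8 except for Sr-CII and Sr-CIV, and most dots of the other lists lie at or near the lowest value, with glia (4 of 7 on) and germ line (6 of 13 on) as the main exceptions.

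Most genes of several other tissues were off, against 50.2% of all genes. None of 13 midgut genes and none of 12 follicle cell and chorion genes was on, and all 25 of them were off. Of 8 fat body genes none was on, and apolpp and Apoltp, which encode lipid transport proteins, were neither, at 5.14 and 5.04. Muscle had 2 of 12 genes on, namely Zasp52 (11.17), a protein of Z-discs and other actin anchors, and bt (8.73), a giant titin-like protein, while sls, up and the actins Act79B and Act87E were among the 10 off. Of 17 neuronal genes only Dscam1 (9.18), a cell surface protein that also has immune isoforms in blood cells, was on, and 13 were off, among them para and Sh, which encode ion channels. The neuronal RNA-binding protein elav was neither, at 8.12 and 7.84 in EGFP cells and 4.60, 5.45 and 4.79 in GST cells. Those values put elav above 6 in both EGFP arrays and below it in all GST arrays. The active zone protein brp had 6.80 and 6.79 in EGFP cells and 5.95, 6.36 and 6.46 in GST cells. Dscam1 also had a probe set that was off, and no neuronal gene was on when probe sets of cross-hybridising types were left out.

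Glial and germ line lists had 4 of 7 and 6 of 13 genes on, near the 43.8% of all genes. Among the glial genes on were moody (10.74), a G protein-coupled receptor of the blood-brain barrier, and nrv2 (10.32), a sodium pump subunit. Gli (9.12), a septate junction protein, and Gs2 (8.34), a glutamine synthetase, were on too. Without cross-hybridising types 2 glial genes were on and 3 off, and the others were neither or had no probe set left. The glial master regulator repo lay at 2.20 in all 5 arrays, and alrm and wrapper were off too. The germ line genes on were led by gus (11.57) and tud (10.57), while vas, bam, bgcn and osk, which define germ cells, were off. The gap junction gene zpg was at 9.52 and 9.52 in EGFP cells and 6.72, 6.49 and 6.65 in GST cells, so that its groups stood well apart. Of 17 testis genes 1 was on, mia (7.90), a subunit of a testis transcription complex, and 15 were off. No gene of 12 photoreceptor genes was on. The epidermal list had 1 of 11 on (baz, 7.02, a polarity protein), and the salivary gland list 1 of 12 (sage, 7.34, a transcription factor of that gland).

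Genes of body pattern were off with few exceptions, against 50.2% of all genes. All 4 measured Hox genes were off, and of 19 segmentation genes 18 were off. The exception was hry, a basic helix-loop-helix repressor of the pair-rule class, at 13.84 and 13.92 in EGFP cells and 13.29, 13.59 and 13.24 in GST cells. Among 11 GATA and Runx genes, srp and its relatives pnr (11.73) and GATAd (9.50) were on with ush and Bgb (9.57), a partner of Runx proteins, but every measured Runx gene (lz, RunxA and RunxB) was off. Of 20 nuclear receptors 7 were on and 12 off, against 43.8% and 50.2% of all genes. The on receptors were led by Hnf4 (10.45), a fatty acid sensor, usp (10.17), the partner of the ecdysone receptor, ftz-f1 (9.76) and Hr78 (9.24). Without cross-hybridising types 4 nuclear receptors were on and 11 off, and the others were neither or had no probe set left. The ecdysone receptor EcR itself was on at a lower level, 7.76 and 7.67 in EGFP cells and 6.32, 6.74 and 6.09 in GST cells.

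Part of the core of the circadian clock was off. The clock turns on the pairing of the activators Clk and cyc with the repressors per and tim. Clk and tim were off in all 5 arrays, as were the light sensor cry and jet. The level of per was neither on nor off, at 4.27 and 4.48 in EGFP cells and 5.15, 4.45 and 5.14 in GST cells, with overlap between the groups. The kinases CkIalpha (12.16) and dco (10.99), the repressors cwo (10.52) and vri (8.51), Pdp1 (8.31) and cyc (7.57) were on. Most of these have tasks outside the clock. When cross-hybridising types were left out, 2 clock genes were on in place of 6 and 3 were off in place of 4. The others were neither or had no probe set left.

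Genes of male dosage compensation were on and genes of the Y chromosome were off. Of 15 genes of sex determination and dosage compensation 12 were on, against 43.8% of all genes. The male-specific lethal complex, which raises transcription of the single male X, was complete among its measured proteins: msl-2, its limiting subunit, was at 9.24 and 9.31 in EGFP cells and 8.12, 8.25 and 8.40 in GST cells, mle averaged 9.76, msl-3 9.52, mof 8.56 and msl-1 7.56. Clamp, a DNA-binding protein that brings the complex to the X, averaged 11.39. The RNA-binding switch gene Sxl was on by its brightest probe set (10.34), yet it also had a probe set that was off, and its male and female transcripts were not resolved. All 7 measured genes of the Y chromosome were off. On the X, 881 of 1873 genes were on (47.0%), against 43.4% of the genes of the large autosomes, and the median level of on genes was 9.40 on the X and 9.54 on the large autosomes. On the small chromosome 4, 33 of 65 genes were on (50.8%).

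Signalling pathways were on in many of their internal parts, and several of their ligands were off. In the Notch pathway the processing genes kuz, Psn and pen-2 were on, with Psn at 10.63 and 10.62 in EGFP cells and 10.75, 10.78 and 10.78 in GST cells. The target gene E(spl)mbeta-HLH was on (10.67) and E(spl)m7-HLH and E(spl)malpha-BFM were off. The inhibitor numb (6.27), the coactivator mam (5.77) and the glycosyltransferase fng (3.69) were neither. In the Hedgehog pathway the signal transducer smo was at 10.12 and 10.15 in EGFP cells and 9.23, 9.35 and 9.42 in GST cells, and rasp (9.85), cos (9.49) and Su(fu) (8.91) were on as well. The ligand gene hh and the receptor and target gene ptc were off, and the transcription factor ci was neither, at 2.33 and 2.36 in EGFP cells and 5.21, 5.22 and 5.44 in GST cells. The values of ci were thus near the bottom of the scale in EGFP cells only, among the control groups.

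Receptor tyrosine kinase signalling had a gap at the EGF receptor. Of 17 genes 12 were on, against 43.8% of all genes. Egfr was off together with aos and the ligand genes Pvf1 and Pvf3. The EGF-like ligand spi was nevertheless bright, at 13.53 and 13.46 in EGFP cells and 13.22, 13.39 and 13.29 in GST cells. Pvr and its ligand Pvf2 (10.36) were on, as were the feedback inhibitor sty (13.79) and the ETS repressor aop (11.25). In the BMP and activin pathway 10 of 17 genes were on, against 43.8% of all genes. The on members included the receptors put (11.12) and sax (11.10), the nuclear factor shn (10.77) and the ligand gbb (10.73). The ligands dpp and scw and the receptor wit were off. Med, the shared Smad partner, was also off, as was raptor, a subunit of the TORC1 kinase complex, in the insulin and TOR list. Whether their probe sets could detect these transcripts was not tested. In that list S6k (12.13), Akt (10.75), Pdk1 (10.26) and InR (9.77) were on, the insulin-like peptides Ilp2 and Ilp5 were off, and foxo was neither (5.87). JAK/STAT signalling had Stat92E at 12.61 and 12.63 in EGFP cells and 12.32, 12.32 and 12.34 in GST cells, and its ligands upd1 and upd2 off. The Hippo pathway had 12 of 14 genes on, against 43.8% of all genes, with the cadherin ds and the kinase fj off. Of 5 measured Wnt genes, wls (11.22), Axn (10.20) and por (7.61) were on and Wnt6 and nkd off.

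Most genes of immune signalling were on, while most of the measured effector genes were off. In the Imd pathway, which responds to bacterial peptidoglycan, 14 of 16 genes were on and none off, against 43.8% and 50.2% of all. Rel, its NF-kappaB factor, was at 12.25 and 12.22 in EGFP cells and 11.75, 11.07 and 11.02 in GST cells, and akirin (13.14), Uev1A (12.45) and ben (12.17) were brighter. The pathway inhibitor pirk was neither, at 7.96 and 8.15 in EGFP cells and 5.90, 4.03 and 4.28 in GST cells. In the Toll pathway 10 of 15 genes were on, against 43.8% of all genes. The ligand spz (13.04), the receptor Tl (10.98) and the protease grass (11.21) were among the 10. The serum proteases SPE and psh and the serpin nec were off, and the NF-kappaB factor Dif was neither (4.09). Of 11 antimicrobial peptide genes 2 were on and 7 off, against 43.8% and 50.2% of all genes. CecB, a cecropin, was at 10.80 and 10.93 in EGFP cells and 8.71, 7.74 and 7.92 in GST cells. Mtk was at 6.54 and 7.02 in EGFP cells and 7.55, 7.21 and 7.03 in GST cells. Drs, the antifungal drosomycin, was neither, at 5.70 and 5.71 in EGFP cells and 7.31, 7.51 and 7.78 in GST cells. The peptide genes did not run in parallel, since CecB was higher and Drs lower in EGFP cells. None of 14 further immune-induced and Turandot genes was on.

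Adhesion and small RNA genes followed, each list to be set against the 43.8% of all genes that were on. Of 28 adhesion and junction genes 19 were on, led by mys (11.61), the integrin beta chain, Lac (11.53), alpha-Cat (11.41) and p120ctn (11.34). The classical cadherins shg and CadN and the immunoglobulin proteins kirre and rst were off, while the catenins that bind such cadherins were on. Of 10 siRNA and miRNA genes 9 were on, led by blanks (13.56), a dsRNA-binding protein, gw (11.57) and Tudor-SN (11.18). Dcr-2, the dicer that cuts long dsRNA, was at 9.76. The piRNA pathway, which silences transposons in gonads, had 19 of 25 genes on. The Piwi proteins piwi and aub were at 10.54 and 10.55 and at 10.05 and 10.06 in EGFP cells, against 10.46, 10.63 and 10.54 and 9.90, 10.14 and 10.09 in GST cells. For both genes the groups overlapped. The third Piwi protein, AGO3, was neither, and vas, tej and qin were off.

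Most lists of the general machinery were mostly on, against 43.8% of all genes. The V-ATPase list (12 of 26) was near that share and the actin and tubulin list under it. In several lists copies of single subunits made up most of the genes that were not on. Of 41 measured cytosolic ribosomal genes 33 were on. When probe sets of cross-hybridising types were left out, 21 were on, but genes with no other probe set then had no value. This holds for each such count below. All 69 measured mitochondrial ribosomal genes (7.58 to 12.26) and all 25 replication genes (7.02 to 11.51) were on. Of 28 cell cycle genes 25 were on and none off, and of 29 aminoacyl tRNA synthetases 25 were on and none off, led by AsnRS (12.33). Translation factors had 35 of 44 on, chaperones 19 of 24, with the constitutive Hsc70-4 at 14.75, and glycolysis 9 of 13, with Tpi at 13.32. Of 13 genes listed under actin and tubulin 4 were on. They were betaTub56D, betaTub97EF and the actin-binding proteins tsr and chic (14.16), the profilin that feeds actin assembly. The only actins in that list were Act79B, Act87E and Act88F, all off, so its count does not describe actin transcripts as a whole. Without cross-hybridising types 11 chaperones, 5 glycolysis genes and 2 genes of actin and tubulin were on. The proteasome split by name: 26 subunits without a testis or related-copy suffix were all on, between 9.98 and 12.90, while 13 of 14 genes with such a suffix were off. The exception was Rpt3R, at 7.80, against 11.40 for Rpt3. In oxidative phosphorylation, 21 genes carried an L suffix that marks a copy, of which none was on and 19 were off, and of the other 49 genes 46 were on and 1 was off. In the V-ATPase, the proton pump of acidic organelles, all 11 genes without an isoform number above 1 or an RP suffix were on (10.37 to 14.18), and 14 of the other 15 were off, with Vha100-2 (11.03) on. In place of 12 V-ATPase genes 6 were on without cross-hybridising types. Names were read only after the levels were known, so these splits are descriptions.

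**Figure D3:**
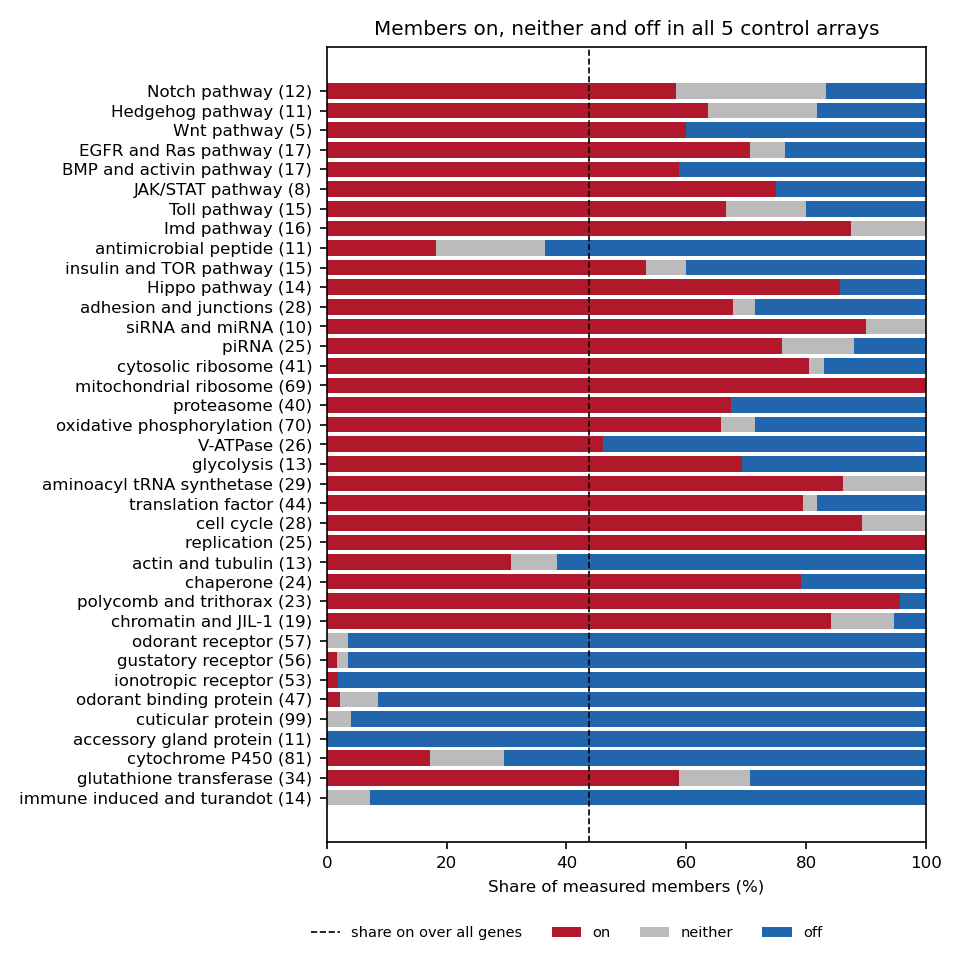
Share of measured members (horizontal axis, %) that were on, neither or off in all 5 arrays, by list with the number measured. The dashed line marks the share on over all genes, 43.8%. The chromatin and Imd lists and those of core machinery other than actin and tubulin reach beyond it, and the chemosensory and cuticle lists are nearly all off.

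Several paralog sets showed the same split between copies, though not all did. Of 59 measured members 23 were on and 32 off, near the 43.8% and 50.2% of all genes. Vha100-1 (11.45) and Vha100-2 (11.03) were both on, as was RpL24-like (12.74). RpS28b was at 15.11 and 15.11 in EGFP cells and 15.04, 15.01 and 14.99 in GST cells, and its copy RpS28a was off. RpL10Ab (14.92) was on and RpL10Aa off. Hsp60A, the mitochondrial chaperonin, was on (12.98) with Hsp60B, Hsp60C and Hsp60D off. Of the cap-binding factors eIF4E1 (12.29) and eIF4E6 (8.04) were on and eIF4E3, eIF4E4, eIF4E5 and eIF4E7 off. Hex-A (10.19), a hexokinase, and Pglym78 (8.63), a phosphoglycerate mutase, were on, and Hex-C, Hex-t1, Hex-t2 and Pglym87 were off. Among beta tubulins betaTub56D (13.90) and betaTub97EF (11.55) were on, betaTub60D neither (6.09) and the testis form betaTub85D off. SkpA, a subunit of ubiquitin ligases, was at 12.65 and SkpB at 5.48, and Cyt-c1 was at 12.39 and Cyt-c1L at 3.84. Near-identical copies can share signal through common probes, and copies on probe sets that list several genes were not counted in these sets.

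Chromatin genes were on as a class, against 43.8% of all genes. Of 23 Polycomb and Trithorax genes 22 were on, led by Caf1-55 (11.77), mor (11.38), kis (11.23) and Snr1 (10.81), with jing off (3.12). Of 19 genes of heterochromatin, insulators and JIL-1 itself, 16 were on. They included 14-3-3epsilon (14.20), which binds phosphorylated histone tails among many partners, a signalling adaptor, His2Av (12.99), a histone H2A variant, and Cp190 (11.47), an insulator protein. JIL-1 was neither, at 7.53 and 7.34 in EGFP cells and 5.79, 5.95 and 5.66 in GST cells. It thus lay above 6 in both EGFP arrays and below 6 in all GST arrays.

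Large families of smell, taste and cuticle were off. Over all genes 43.8% were on and 50.2% off. Of 57 odorant receptors none was on, of 56 gustatory receptors 1 (Gr61a, 8.26), of 53 ionotropic receptors 1 (Ir76a, 8.47) and of 47 odorant binding proteins 1 (Obp99c, 8.52). Ir76a was called on through a probe set of a cross-hybridising type. Without such types it was not on or had no probe set left. No cuticular protein of 99 and no accessory gland protein of 11 was on. Detoxification families were partly on: 20 of 34 glutathione transferases, led by GstE6 (13.32) and GstE9 (13.17), and 14 of 81 cytochromes P450, led by Cyp4e2 (12.03). Of protein-coding genes known only by a CG number 1585 of 5137 were on (30.9%), against 3636 of 6654 with other names (54.6%), and 9 of 77 long noncoding RNAs were on.

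On and off genes lay in stretches along the chromosomes. A gene that followed an on gene was on in 62.1% of cases, against 44.0% of all following genes, and a gene that followed an off gene was off in 67.8%, against 49.9%. There were 117 unbroken runs of at least 10 off genes and 33 of at least 10 on genes. The longest off run held 36 genes on 2R, from Gr59a to CR30409, and included gustatory receptors and the copies RpL37-2, RpL22-like and Prosbeta5R1. The next, of 34 genes on 3R, held the Osiris genes up to Osi18, and a run of 25 on 2R held the Obp56 group. The longest on run held 20 genes on 3R, from Itpr to Dph4. A run of 18 on genes on 2L, from Marcal1 to CG31650, included the neighbouring collagen genes vkg and Col4a1. Neighbours can share probes or overlapping transcripts, whose part in these runs was not tested.

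The control groups were then set against each other, because a baseline from 1 of them need not hold for the other. Tested were 5864 genes, 195 probe sets that list several genes and 677 that list none, all with a level above 4. Of these 6736, 3885 differed between EGFP and GST cells (57.7%) in the limma test at an adjusted p under 0.05. Of these, 2346 were higher in EGFP cells (34.8%) and 1539 lower (22.8%). The groups did not overlap in 5169 of the 6736 (76.7%). Over all tested the median absolute difference was 0.36 on the log2 scale. Of the calls, 1316 were higher and 677 lower by at least 1.5-fold, and 87 were higher and 64 lower by at least 4-fold. Among those tested, 96 had a mean under 4 in either group and passed the filter only through the other, and 86 of these were called. In the lists counted below, numb, Sr-CIV, ATPsynepsilonL and dsx passed in that way. The count of calls rested on both EGFP arrays, since without EGFP replicate 4 it was 2321 and without EGFP replicate 5 it was 2161. The split by direction depended on the scaling. The median difference was 0.10 and 60.4% of calls were higher in EGFP cells as deposited, whereas with the arrays set to a common median 43.2% of calls were higher, and with quantile normalization 49.2%. Directions of small differences are therefore relative to the scaling as deposited.

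**Figure D4:**
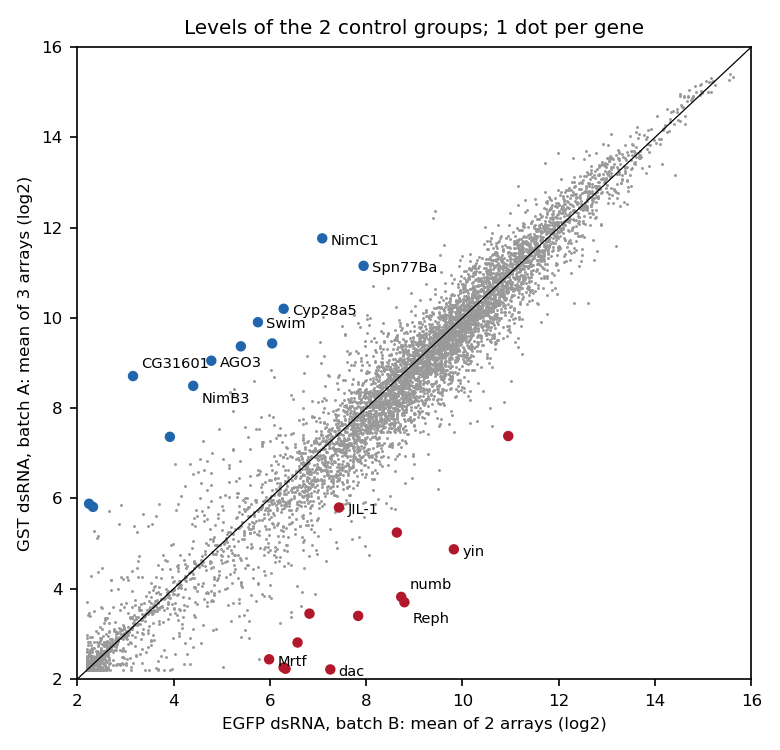
Mean level of each gene in the 2 EGFP arrays (horizontal axis, log2) and in the 3 GST arrays (vertical axis, log2), 1 dot per gene, with the line of equal levels. Red dots mark JIL-1 and the 12 genes with the largest positive differences as deposited, which lie below the line, and blue dots the 12 with the largest negative ones, among them NimC1 and AGO3, which lie above it.

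The 12 genes named on each side were ranked by the log2 difference as deposited, which also counts values near the lowest signal. Those given as bounds therefore have no order, and genes measured above 4 in all arrays, such as pirk (9.94-fold higher), elav (8.20-fold higher) and NimB2 (7.58-fold lower), exceed some of those bounds. The oligopeptide transporter gene yin was at 10.00 and 9.64 in EGFP cells and 4.61, 5.08 and 4.94 in GST cells, a level 30.8-fold higher (log2 difference 4.95, SE 0.18, adjusted p = 4.98e-05). The Notch inhibitor numb was at 8.71 and 8.74 in EGFP cells and 4.22, 3.62 and 3.63 in GST cells, at least 25.2-fold higher. The nuclear factor dac was at 7.16 and 7.36 in EGFP cells and 2.20, 2.20 and 2.24 in GST cells, where it sat at the lowest signal, at least 9.55-fold higher. In each of these genes the EGFP values lay far above all GST values. Reph was at least 24.4-fold higher, rdgB, a phosphatidylinositol transfer protein, at least 5.01-fold, and Mrtf, a coactivator of serum response factor, at least 3.96-fold. These bounds were computed with values under 4 raised to 4. CG31038 was at least 14.3-fold higher, CG32017 11.9-fold and CG2930 10.5-fold. CG14556, CG33181 and CG6357 were at least 4.87-fold, 5.96-fold and 7.07-fold higher. Over all genes, 8 were on in the EGFP arrays and off in the GST arrays and 1, CG31601, was the reverse. JIL-1 was 3.11-fold higher in EGFP cells (log2 difference 1.64, SE 0.11, adjusted p = 0.000309).

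The 12 named negative differences included blood cell and detoxification genes. NimC1, a phagocytosis receptor of the Nimrod family, was at 7.33 and 6.84 in EGFP cells and 11.81, 11.62 and 11.86 in GST cells. Its level was 25.5-fold lower in EGFP cells (log2 difference -4.67, SE 0.16, adjusted p = 4.98e-05), and it was on in every array. AGO3 was at 5.11 and 4.46 in EGFP cells and 9.06, 9.02 and 9.07 in GST cells, 19.3-fold lower (-4.27, SE 0.19, adjusted p = 9.21e-05). Swim, a secreted protein that binds the Wnt ligand Wingless, was at 5.93 and 5.57 in EGFP cells and 10.20, 9.75 and 9.76 in GST cells, 17.8-fold lower. All of these genes had their EGFP values below every GST value. NimB3 was 17.0-fold lower, the cytochrome P450 Cyp28a5 15.1-fold lower and the serpin Spn77Ba 9.23-fold lower. Cyp6a22 and Cyp6a13, near the lowest signal in EGFP cells, were at least 3.69-fold and 3.52-fold lower. Among genes known by CG numbers, CG31601 was at least 26.2-fold, CG3635 at least 9.14-fold, CG12065 15.7-fold and CG31997 10.5-fold lower. None of the 12 genes on each side lost its call when any 1 GST array was left out. They were picked as the largest called differences in these same arrays, so this gives them no further support. Several of them, such as dac, rdgB and CG31601, had a mean under 4 in 1 group and passed the filter only through the other.

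The blood cell genes differed between the groups in part. Of 24 tested plasmatocyte genes 4 were higher and 12 lower in EGFP cells, against 34.8% higher and 22.8% lower over all tested, with a median difference of -0.20 against 0.10 over all genes and probe sets tested. The Nimrod family genes were lowest: NimB2 was at 7.01 and 7.17 in EGFP cells and 10.12, 9.93 and 10.00 in GST cells, 7.58-fold lower (adjusted p = 4.64e-05). NimB4 was 4.93-fold and NimB5 3.97-fold lower, as were the scavenger receptor Sr-CI (2.53-fold), He (1.93-fold), a surface glycoprotein, and Pxn (1.82-fold), a peroxidase of the matrix. The GATA factor srp went the other way, at 13.30 and 13.42 in EGFP cells and 12.39, 12.70 and 12.62 in GST cells (log2 difference 0.79, adjusted p = 0.00259). Both measured prophenoloxidases of crystal cells were lower, with the values given above. Of 3 tested lamellocyte genes 2 were higher, cher by 0.45 and msn by 0.35, and none was lower. The calls of LanB2, ush, Pvr and crq, all under 0.4 in size, were lost under several alternatives.

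Several machinery lists were mostly lower in EGFP cells. Over all genes and probe sets tested, 34.8% were higher and 22.8% lower. Of 48 tested oxidative phosphorylation genes 2 were higher and 38 lower, with a median difference of -0.50 as deposited, -0.66 at a common median and -0.36 after quantile normalization. Of 27 proteasome genes 1 was higher and 23 lower (median -0.46), and of 19 chaperones 1 was higher and 12 lower (median -0.36). The largest of these changes included ATPsyndelta (-1.78) and ATPsynbeta (-1.70), subunits of ATP synthase, and the small heat shock protein Hsp26 (-1.85). Of 22 glutathione transferases 2 were higher and 15 lower. Glycolysis did not follow, with 3 higher (Hex-A, Pglym78 and Tpi) and 1 lower (Eno) of 9. Mitochondrial ribosomal genes gave no such shift, with 11 higher and 12 lower of 69 and a median of -0.01. Cytosolic ribosomal genes had 1 higher and 8 lower of 34, and their median of -0.11 turned to 0.01 after quantile normalization.

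Lists of chromatin and of several signalling pathways were mostly higher. Of 22 Polycomb and Trithorax genes 16 were higher in EGFP cells and 1 was lower (median 0.74), against 34.8% and 22.8% of all tested. Pc, the chromodomain protein that binds methylated histone H3, was higher by 1.27 and kis, a chromatin remodeller, by 1.25, while Caf1-55, a histone-binding protein, was lower with a difference of -0.30. Of 18 genes of the chromatin list 13 were higher and 2 lower (median 0.58), with Chro, a chromodomain protein of interbands, at 1.39 and CTCF, an insulator protein, at 1.11. All 9 tested insulin and TOR genes were higher (median 0.75), with InR, the insulin receptor, at 10.39 and 10.69 in EGFP cells and 8.74, 9.63 and 8.62 in GST cells. Of 9 Notch genes 7 were higher and none lower (median 1.06), and the metalloprotease gene kuz was at 12.63 and 12.60 in EGFP cells and 10.04, 10.87 and 10.05 in GST cells. Dosage compensation and sex determination had 11 of 14 higher and 1 lower (median 0.47), and replication 16 of 25 higher and 1 lower (median 0.32). The medians of these lists stayed above 0 under both other scalings. Other pathways were divided: of 12 Toll genes 2 were higher and 5 lower, among them spz (-0.51) and cact (-0.60), and of 6 JAK/STAT genes 2 were higher and 2 lower.

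Measures of RNA integrity and gene size moved with the groups. The 3' minus 5' signal of the Act5C control probe sets, which grows as RNA or labelling loses the 5' end, was 1.84 and 2.01 in EGFP cells and 0.54, 0.66 and 0.57 in GST cells. For GAPDH it was 1.23 and 1.54 in EGFP cells and 0.55, 0.56 and 0.38 in GST cells. The groups did not overlap in either. Split into 5 equal classes by the length of the gene on the genome, the 5850 named genes with a known length had median differences of 0.02, 0.01, 0.07, 0.24 and 0.29 between EGFP and GST cells, in the order of short to long genes. In the class of the longest genes 47.7% were higher in EGFP cells, against 25.5% in that of the shortest. RNA had been extracted by either of 2 methods, but the labels do not tie an array to a method. The part of RNA integrity, gene length and extraction in the differences between the groups was not tested.

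Chromosome arms also differed in the median difference. On 3L 45.5% of 1116 tested genes were higher in EGFP cells and 14.2% lower, with a median of 0.24, which was 0.15 above that of the other large autosomes. That gap was between 0.14 and 0.16 in all settings computed, which included both other scalings and each array left out. On the X the median was 0.03, and on chromosome 4, with 40 tested genes, 0.31. Cut into consecutive blocks of 50 tested genes, 3L had a median above 0 in 22 of 22 blocks, between 0.10 and 0.43, whereas 2R did so in 17 of 23 and the X in 13 of 19. The shift of 3L was therefore spread over the arm. Its cause was not tested.

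**Figure D5:**
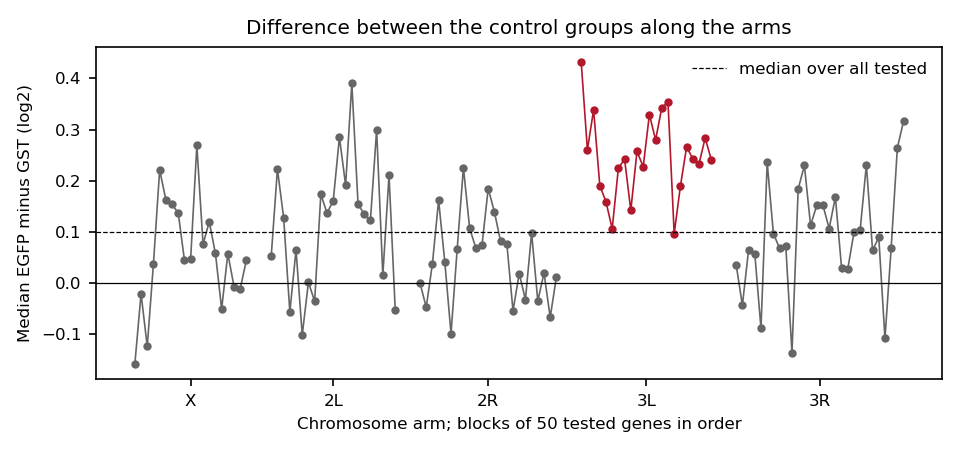
Median EGFP minus GST difference (vertical axis, log2) of consecutive blocks of 50 tested genes, by chromosome arm, 1 dot per block. All 22 blocks of 3L lie above 0, between 0.10 and 0.43, while the other arms have blocks on both sides of 0.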

How the data were processed

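Single-colour Affymetrix arrays measured total RNA. The authors deposited 1 log2 value per probe set and array, and the submitters' processing notes name GCRMA, which subtracts a background predicted from each probe's bases before quantile scaling and probe summary. No source used here gives the GCRMA version or says whether both batches were processed jointly. That the scale is log2 was judged from the range of the values.

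Names of probe sets came from the platform annotation: 13647 listed 1 gene, 402 listed several, 4720 listed none and 183 were controls of the array. Among those with 1 gene, 13544 matched the Release 6 gene table, which gave current symbols, arms and neighbours. No sequence is printed. Of 1094 genes with several probe sets, 229 had both an on and an off one.

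The EGFP minus GST difference was tested in limma 3.58.1 under R 4.3.3 (lmFit, eBayes, two-sided, Benjamini-Hochberg over 6736, threshold 0.05), for a mean of the group means above 4, with 1 probe set per gene. The fit was first tested on simulated data. Levels and states were computed in Python 3.11.15 with pandas 2.3.3.

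Genes were named from the 25 highest, the measured paralogs and the 12 largest differences on each side, with JIL-1. From each of 59 lists up to 4 on and 4 off members were taken, with any intermediate member of signalling and clock lists. Only part of the 25 highest and of the paralogs is named in the text. Other genes named were chosen after their values were seen: Hml, eater, drpr, Sr-CI, crq, LanA, LanB1, LanB2, He, Pxn, NimB2, NimB4, NimB5, apolpp, Apoltp, elav, brp, GATAd, EcR, Pdp1, cyc, mle, msl-1, msl-2, msl-3, mof, Pvf2, Drs, Osi18, Pc, Chro, CTCF, ATPsyndelta, ATPsynbeta, Hsp26, Tpi, Eno, cact, Sr-CIV, ATPsynepsilonL, dsx, Wnt6, nkd and the ends of runs. The members and lists were chosen with earlier results of these data known. Alternatives were other probe set choices, limits, scalings, filters and variance models, all 10 arrays, and each array left out. The control groups taken alone and the removal of genes with opposite probe sets were added after the data were seen.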

Additional observations from a re-analysis of the deposited data

Results flagged for a closer look

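Of 54 items tested for a single stray array among the 5, 1 stood out. The items were genes named by level or difference and summaries of each array. RpLP1, a stalk protein of the large ribosomal subunit, was at 15.3 in GST replicate 1, against 15.22 and 15.21 in EGFP cells and 15.22 and 15.20 in the other GST arrays. Its gap to the nearest value was 0.806 of the whole range, above the limit of 0.71. Chance gives such a gap in about 1 in 20 groups, and the size of the gap was under 0.1 on the log2 scale.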

How the results depend on the processing

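The count of genes on in all 5 control arrays lay between 4490 and 5538, and that of genes off in all 5 control arrays between 5793 and 6318, over the alternatives run. Each stayed within 1.5 times of 5245 and 6019. The number of calls between EGFP and GST cells, 3885, was 1973 (1096 higher, 877 lower) without a filter on low values, where 17105 were tested, and 1993 (1316 higher, 677 lower) with at least 1.5-fold. Leaving out each array gave 2161 to 3909 calls, 1338 to 2342 higher and 823 to 1623 lower. The lowest counts came without EGFP replicate 5 and then without EGFP replicate 4, where the lone EGFP array is assumed to vary like the GST arrays. A common median gave 1754 higher and 2303 lower, and quantile normalization 1980 and 2043. All 10 arrays with 4 means gave 4210 calls. Of single genes, 514 recomputed values kept their call and 26 lost it, and of list counts 1612 stayed within 1.5 times and 40 did not. Without cross-hybridising types 21 cytosolic ribosomal genes were on in place of 33, and 4490 over all genes. Only 10979 genes had a probe set left in that setting. No direction was reversed among the recomputed values of single genes. These were only JIL-1, the largest called differences and the called plasmatocyte genes, so a reversal was unlikely from the start. The median difference over all tested did change sign, from 0.10 as deposited to -0.05 at a common median. No paired analysis was possible because the control groups share no replicate number. With 2 and 3 arrays the precision is limited, and values near the lowest signal give bounds only.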
